A study of Mus musculus with 20 samples.

Results

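Nnt encodes nicotinamide nucleotide transhydrogenase, a protein of the inner mitochondrial membrane. It was followed here through every probe that the array design names for it, which are 3 of 39429 probes and 1 of 30139 genes or transcripts. The gene was chosen by its measured fall in salivary gland of the mice labelled Irgm1-/-, on these same arrays, with no like fall in the other tissues, so its genotype differences are given as a description, with no test. RNA came from C57BL/6 mice kept free of specific pathogens and was hybridized to 20 single-colour arrays. The Irgm1-/- groups were salivary gland of 4 females aged 9 weeks, whole duodenum (small intestine) of 2 males aged 6 and 8 weeks and 1 female aged 6 weeks, and macrophages isolated from the colon of the same 3 animals. The WT groups were salivary gland of 4 females, 2 aged 6 weeks and 2 aged 7 weeks, and duodenum and colonic macrophages of 3 females aged 6, 8 and 6 weeks. Genotype therefore ran with age in salivary gland and with sex in the other tissues, and these cannot be told apart where they coincide. The labels give C57BL/6 as the background of all groups and name no substrain, and the deleted part of Irgm1 is unstated in the sources at hand.

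The transhydrogenase uses the proton gradient across the inner membrane to reduce NADP+ with electrons from NADH. The NADPH it makes in the matrix feeds the glutathione and thioredoxin systems, which remove peroxides. In mice the gene is also known as a substrain marker, because C57BL/6J animals carry a deletion of several coding exons that C57BL/6N animals do not have.

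The 3 Nnt probes are shown because they read different stretches of the transcript, and only 1 of them gave a signal everywhere. The last 30 bases of each 60-base probe are printed as listed in the scanner files, 5′ to 3′, with AATAAA, the canonical polyadenylation signal, in capitals where it occurs.
A_55_P2008956: attttcatatttggtgatgatattaaataa
A_55_P2144285: atctgagtAATAAAtgagttcataaaagtg
A_55_P2144280: tcctactagcatccaatgataaaagccaag
The RefSeq table of assembly GRCm38.p6 places Nnt on chromosome 13. The scanner files list A_55_P2008956 under transcript AK050478 with Start 3763, and the other probes under NM_008710 with Start 4091 for A_55_P2144285 and Start 5102 for A_55_P2144280. The letters AATAAA begin at base 39 of A_55_P2144285, and neither of the other Nnt probes holds them. As listed, 12.6% of all 60-base probes hold AATAAA, and on the other strand 4.03% do. The match is given as letters, and whether it is a working site was not tested. Read as listed, A_55_P2144285 and A_55_P2008956 have a stop codon in 3 of 3 frames, as 20.4% of all probes do, and A_55_P2144280 has one in 2 of 3 frames. A probe with stops in every frame is not wholly coding sequence. Whether its level depends on the coding exons missing from C57BL/6J was not tested. The exons under the probes were not determined here.

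Of the 3 Nnt probes, 1 was detected on every array. A_55_P2144285 was well above background on 20 of 20 arrays, with a processed signal of 175 to 7206 scanner units. A_55_P2144280 was well above background on 0 of 20 arrays, at 20.9 to 32.4 units. A_55_P2008956 was well above background on 3 arrays, all of macrophages, and ranged from 21.7 to 269 units over the 20 arrays. Its macrophage signals were 86.6, 100.1 and 216 units on Irgm1-/- replicates 1 to 3, of which only replicate 3 was called well above background. On WT replicates 1 to 3 they were 37.1, 167 and 269 units, and replicates 2 and 3 were called. The groups overlapped in that probe. No level of 1 probe is set against that of another, and all further Nnt values are those of A_55_P2144285.

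**Figure D1:**
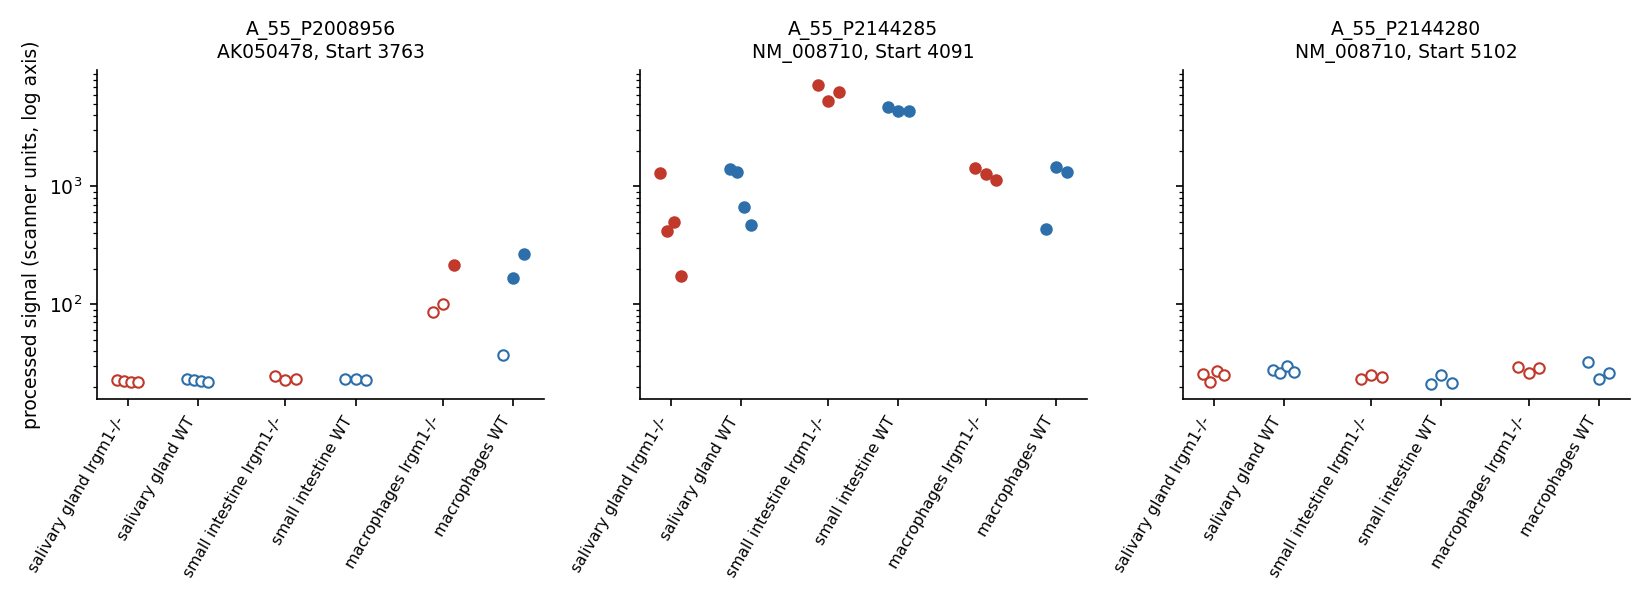
Processed signal (scanner units, log axis) of the 3 Nnt probes on each of 20 arrays, Irgm1-/- in red and WT in blue; filled points were well above background and open points were not. A_55_P2144285 was well above background on 20 arrays, A_55_P2008956 on 3 macrophage arrays and A_55_P2144280 on 0.

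Before the levels, 2 features of the arrays touch them. The salivary gland arrays were the dimmest, with 25.2% to 48.7% of their probes detected (well above background), against 52.6% to 62.1% in small intestine and at most 74.2% in macrophages. Each array was set to the 75th percentile of the 8448 probes detected on all 20 arrays. On this log2 scale a level of 0 is that percentile. Irgm1, the targeted gene, was higher and not lower on arrays labelled Irgm1-/-, by 2.63 in salivary gland (SE 0.23, limma adjusted p = 0.000551, n = 4 per group), 1.38 in small intestine (SE 0.17, limma adjusted p = 0.0754, n = 3 per group) and 0.79 in macrophages (SE 0.34, limma adjusted p = 0.54, n = 3 per group). Whether the probe lies in the deleted part is not known, so these levels do not check the label. Every direction below follows the label. The markers of each tissue were present: all 9 measured acinar markers were well above background on every Irgm1-/- salivary gland array and 8 of 9 on every WT one, and all 8 epithelial markers were on every duodenum array. Of 10 macrophage markers, 8 were detected on every Irgm1-/- and 9 on every WT macrophage array. All 10 were also detected on every small intestine array, so their detection does not set the macrophage arrays apart or show their purity.

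In salivary gland, Nnt was lower in the arrays labelled Irgm1-/-. Its log2 level was -3.12, -3.32, -3.17 and -3.31 on Irgm1-/- replicates 1 to 4, against -1.54, -1.38, -1.57 and -1.73 on WT replicates 1 to 4. The 4 Irgm1-/- values lay within a narrow range well under all 4 WT values, and the groups did not overlap. The means were -3.23 ± 0.10 in Irgm1-/- and -1.56 ± 0.14 in WT (SD, n = 4 each), a difference of -1.67 (SE 0.09). On a linear scale the Irgm1-/- level was 0.313 of the WT level. The lowest WT array stood 1.39 above the highest Irgm1-/- array on the log2 scale. In whole tissue, fewer cells that hold the transcript and less of it per cell cannot be told apart.

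The raw signals behind these levels overlapped, because the arrays differed in brightness. The processed signal of Nnt was 1308, 417, 494 and 175 units on Irgm1-/- replicates 1 to 4, and 1407, 1317, 671 and 474 units on WT replicates 1 to 4. The 75th percentile that served as the scale was 11369, 4168, 4451 and 1733 units on the Irgm1-/- arrays and 4084, 3435, 1991 and 1574 units on the WT arrays. Each Irgm1-/- array was thus brighter than the WT array of the same number, while its Nnt spot was dimmer. The rank of Nnt within its own array needs no scaling. Nnt was brighter than 77.6%, 76.7%, 78.2% and 76.4% of probes on Irgm1-/- replicates 1 to 4, and brighter than 88.4%, 89.3%, 88.1% and 87.4% on WT replicates 1 to 4. By rank, too, the groups did not overlap.

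Each slide held 2 salivary gland arrays of each genotype. Within the first slide Nnt differed by -1.76 and within the second by -1.59, Irgm1-/- minus WT. The median difference over all 11457 genes tested in the tissue was 0.02, so relative to it Nnt stood at -1.70. Of those genes 6 had a lower difference than Nnt. By limma, 21 genes, or 0.183%, were lower and 245, or 2.14%, were higher at an adjusted p under 0.05, and 3.51% of genes were lower without overlap between the groups. The contrast chose Nnt, so its place among them is a description.

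In small intestine the genotypes overlapped in Nnt. Its log2 level was -2.53, -2.80 and -2.66 on Irgm1-/- replicates 1 to 3, against -2.59, -2.84 and -2.63 on WT replicates 1 to 3. The highest and the lowest array of the tissue differed by little more than the spread within a genotype. The means were -2.66 ± 0.14 in Irgm1-/- and -2.69 ± 0.14 in WT (SD, n = 3 each), a difference of 0.03 (SE 0.11). Within slides it was 0.06 (1 array of each genotype) and 0.01 (2 of each). All genes tested had a median difference of 0.12 in this tissue, relative to which Nnt stood at -0.10. The sign of the Nnt difference itself depended on the scaling: it was below 0 under every other scaling tried, the lowest being -0.30 with each array set to its median.

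In colonic macrophages the genotypes overlapped as well, and the WT arrays were spread widely. The log2 level of Nnt was -2.70, -2.74 and -3.04 on Irgm1-/- replicates 1 to 3, against -3.63, -2.54 and -3.00 on WT replicates 1 to 3. WT replicate 1 was the lowest of the 20 arrays and WT replicate 2 was the highest of the 6 macrophage arrays. The means were -2.82 ± 0.19 in Irgm1-/- and -3.06 ± 0.55 in WT (SD, n = 3 each), a difference of 0.23 (SE 0.33). Without WT replicate 1 the difference was -0.05. Within slides it was 0.36 (2 arrays of each genotype) and -0.03 (1 of each).

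The WT macrophage arrays carried high levels of pancreatic enzyme transcripts, which the label does not account for. Cela2a, a pancreatic elastase, ranged from -8.67 to -7.43 on the 3 Irgm1-/- arrays and from 2.35 to 4.22 on the 3 WT arrays. The trypsinogen gene Prss2 ranged from -7.97 to -6.27 on the Irgm1-/- and from 2.67 to 4.62 on the WT arrays. All 20 genes called in macrophages by limma, 0.0949% of 21072, were lower in Irgm1-/-, and most are digestive enzymes of the pancreas. The 10 macrophage markers had differences below 0, and with the replicate number as a block, which pairs animals here, 5 of the 10 passed, all lower, by limma. Under that block 4.34% of all genes were called lower. The summed level of the macrophage markers was 4.94 to 5.43 on the Irgm1-/- and 5.34 to 5.60 on the WT arrays, on the log2 scale. Itgam carried most of that sum, with mean levels of 5.06 in Irgm1-/- and 5.31 in WT. The next brightest, C1qb, had means of -1.24 and 0.08. The differences of the 10 markers ran from -1.65 (C1qa) to -0.25 (Itgam), so the sum does not show the larger ones. The part of the pancreatic transcripts and of these markers in the Nnt values of macrophages was not tested.

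**Figure D2:**
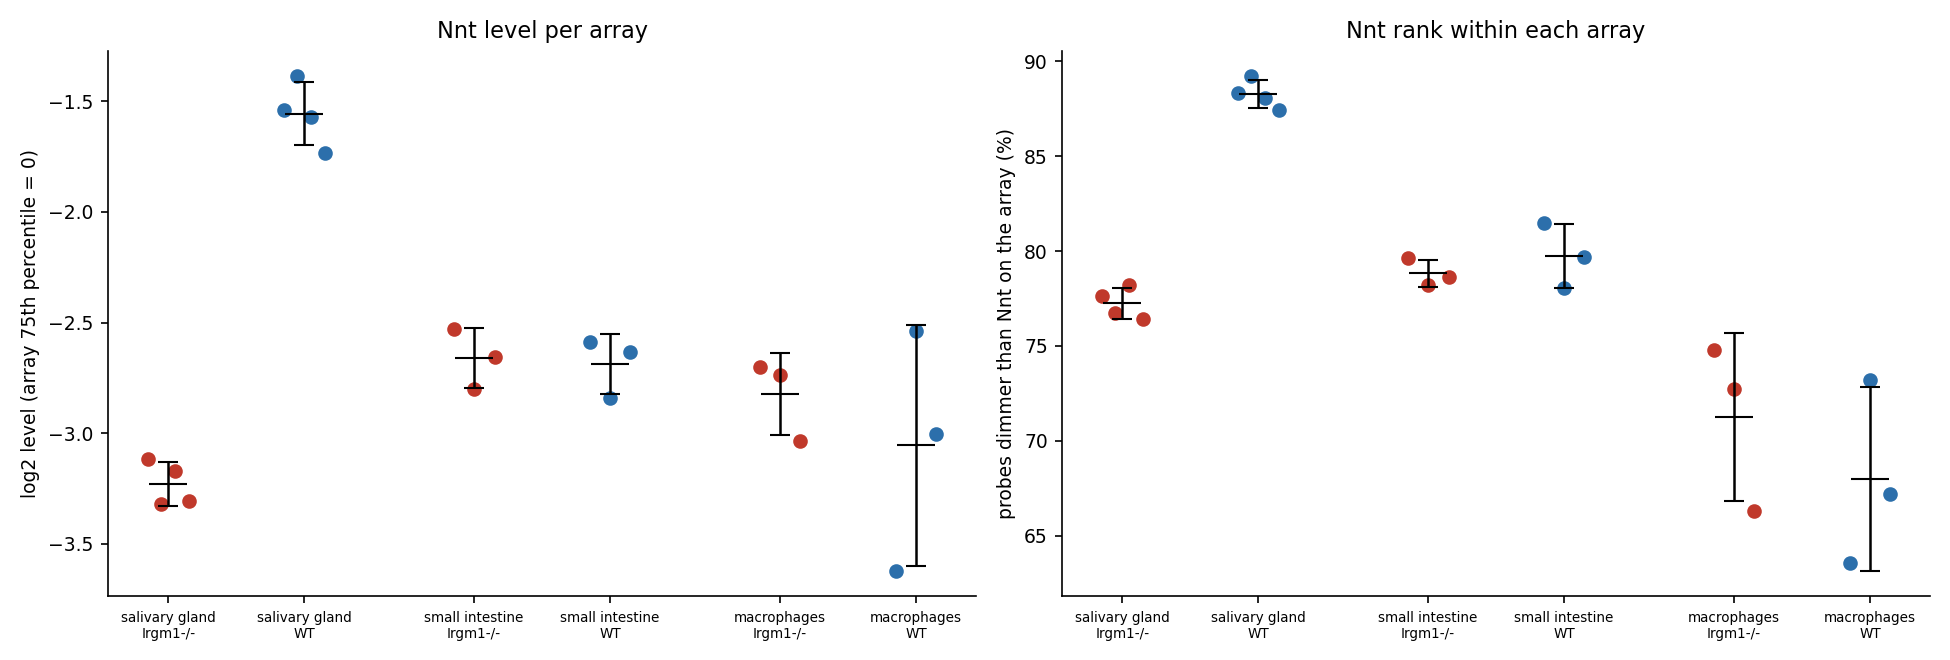
Left, log2 level of Nnt (A_55_P2144285) per array relative to the 75th percentile of commonly detected probes; right, the percent of probes on the same array that were dimmer. Points are arrays, Irgm1-/- in red and WT in blue, and bars are mean ± SD (n = 4 in salivary gland, n = 3 elsewhere). Salivary gland WT lies apart from its Irgm1-/- group in both panels.

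Ordered by mean level, salivary gland WT came first at -1.56, followed by small intestine Irgm1-/- (-2.66) and WT (-2.69), macrophages Irgm1-/- (-2.82) and WT (-3.06), and salivary gland Irgm1-/- (-3.23). Only the step from salivary gland WT to the next group, of 1.11, was free of overlap between neighbours in this order. The other 5 groups overlapped, each with the next. By rank within the array the order of the lower groups was another: Nnt was brighter than 77.2% of probes in Irgm1-/- salivary gland and 88.3% in WT salivary gland, 78.8% and 79.7% in Irgm1-/- and WT small intestine, and 71.3% and 68.0% in Irgm1-/- and WT macrophages (means). Slides were numbered within each tissue and were not compared between tissues. Levels set across tissues share a scale that the 8448 common probes define.

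Small intestine and macrophages came from 6 shared animals, by animal numbers in the deposited files that agree in genotype, sex and age for 6 of 6. In the Irgm1-/- animals the Nnt level in small intestine and in macrophages was -2.53 and -2.74 in the male aged 6 weeks, -2.80 and -2.70 in the male aged 8 weeks, and -2.66 and -3.04 in the female aged 6 weeks. In the WT females it was -2.59 and -2.54 in one aged 6 weeks, -2.63 and -3.00 in the other aged 6 weeks, and -2.84 and -3.63 in the one aged 8 weeks. Macrophages had the lower level in 4 of the 6 animals. In each genotype the animal aged 8 weeks had the lowest small intestine level, and 1 animal per genotype at that age allows no test of age. The males of the Irgm1-/- group lay at both ends of its small intestine range.

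The genes that lie next to Nnt on chromosome 13 had differences on both sides of 0 in salivary gland, from -0.84 to 0.80. Of the 5 nearest genes on each side in the RefSeq table, 5 were bright enough to be tested there and 0 passed by limma at an adjusted p under 0.05, where 2378 of all genes had an unadjusted p under that value. Tmem267, a predicted membrane protein, had the largest difference, -0.84 (SE 0.31, limma adjusted p = 0.183). Its levels ran from -0.59 to 0.97 on Irgm1-/- arrays and from 0.73 to 1.45 on WT arrays, which overlapped, and with the mean of all its probes it differed by -0.36. Emb (embigin, a partner of monocarboxylate transporters) differed by 0.80 (SE 0.26) and the epithelial chemokine Ccl28 by -0.48 (SE 0.22). Mrps30, a protein of the mitochondrial ribosome, differed by 0.10 (SE 0.11) and Hmgcs1, a cytosolic enzyme of sterol synthesis, by 0.06 (SE 0.18). Fgf10, Parp8, Paip1 and Nim1k were too dim to be tested in salivary gland.

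In the other tissues 0 of the tested neighbours passed by limma without a block (7 tested in small intestine and 8 in macrophages). Over all genes 0.189% and 0.0949% were called there. In macrophages Hmgcs1 differed by 0.998 (SE 0.30, limma adjusted p = 0.312) and passed with the replicate number as a block (limma adjusted p = 0.0368) and in the fit of 20 arrays (limma adjusted p = 0.0397). Under that block 5.15% of all genes were called, and 0.812% were called higher. Parp8, an ADP-ribosyltransferase family member, differed by 0.46 (SE 0.17) in small intestine and -0.60 (SE 0.58) in macrophages. Neither passed.

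The other enzymes that supply NADPH in mitochondria were measured next to Nnt. Of 7 listed, 5 were tested in salivary gland and 0 passed by limma, against 2.32% of all genes called there in either direction. Their median difference was 0.05, beside 0.02 over all genes. Aldh1l2, a folate enzyme that makes NADPH, differed by -0.69 (SE 0.41) and Glud1, glutamate dehydrogenase, by 0.26 (SE 0.10). Idh2, the NADP+-dependent isocitrate dehydrogenase of mitochondria, had mean levels of 0.19 in Irgm1-/- and 0.35 in WT, a difference of -0.16 (SE 0.11). In small intestine 7 were tested with a median of 0.02, and in macrophages 5 with a median of 0.12. None of these passed in either tissue (0 of 7 and 0 of 5, limma), where 0.189% and 0.0949% of all genes were called.

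The enzymes that spend mitochondrial NADPH or remove peroxides gave 0 calls among 9 tested in each tissue by limma. Over all genes 2.32% were called in salivary gland, 0.189% in small intestine and 0.0949% in macrophages, and 0 of 9 is near these shares. Their medians were 0.01 in salivary gland, -0.14 in small intestine and -0.14 in macrophages. In salivary gland Gsr, glutathione reductase, differed by 0.38 (SE 0.11, limma adjusted p = 0.116), and Glrx2, a mitochondrial glutaredoxin, by -0.33 (SE 0.16). Txnrd2, the mitochondrial thioredoxin reductase, differed by 0.14 (SE 0.13). Gpx4, the glutathione peroxidase that acts on lipid peroxides, was lower without overlap in small intestine (-0.34, SE 0.12) and macrophages (-0.37, SE 0.22), where 3.47% and 8.31% of all genes were, and passed in neither.

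The cytosolic NADPH enzymes had higher values in Irgm1-/- salivary gland without passing. Of 4 listed, 3 were tested, and for these 3 the groups did not overlap, as was so for 13.5% of all genes tested (10% on the higher side). Malic enzyme, Me1, had levels of -4.61 to -2.98 on Irgm1-/- arrays and -5.09 to -4.67 on WT arrays, and differed by 1.19 (SE 0.33, limma adjusted p = 0.112). It was well above background on 3 of the 4 Irgm1-/- arrays and 1 of the 4 WT arrays. G6pdx, the entry enzyme of the pentose phosphate pathway, had levels of -1.06 to -0.17 in Irgm1-/- and -1.50 to -1.30 in WT, and differed by 0.69 (SE 0.19, limma adjusted p = 0.101). Pgd, which makes NADPH later in that pathway, differed by 0.53 (SE 0.16, limma adjusted p = 0.137). Without Irgm1-/- replicate 4 Me1 passed, at 1.49 (limma adjusted p = 0.0238).

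Mitochondrial content genes encode subunits of the respiratory chain, enzymes of the citric acid cycle and import or outer membrane proteins. Of these, 0 of 18 tested in salivary gland were called by limma, where 2.32% of all genes were. Their differences ran from -0.19 to 0.24 around a median of 0.04, all nearer to 0 than the -1.67 of Nnt. Cs, citrate synthase, differed by 0.23 (SE 0.11), the succinate dehydrogenase subunit Sdha by 0.24 (SE 0.13) and Tfam, which packages mitochondrial DNA, by 0.21 (SE 0.15). In small intestine the median was -0.08 and in macrophages 0.37. All 18 macrophage differences were above 0, with 0 calls by limma, where 0.0949% of all genes were called. The lowest, that of Cox4i1, was -0.05 without WT replicate 3. Cs, at 0.86 (SE 0.32), was called in macrophages in the fit of 20 arrays alone (limma adjusted p = 0.0304). In that tissue Nnt differed by 0.23.

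Other genes reported to differ between C57BL/6 substrains or colonies were examined because the labels leave the substrain unnamed. Of 10, 4 were tested in salivary gland and 0 passed by limma, where 2.32% of all genes were called in either direction. The others were too dim to be tested there. Whether the groups differ in substrain was not tested by these counts. Entpd4 differed by 0.32 (SE 0.23), Wdfy1 by -0.22 (SE 0.15) and the protease Ide by 0.09 (SE 0.17). Without Irgm1-/- replicate 1 Entpd4 was at 0.57 and passed (limma adjusted p = 0.0441). In macrophages Mmrn1, multimerin, differed by -1.37 (SE 0.63, limma adjusted p = 0.593) and passed with the replicate block (limma adjusted p = 0.0238). The same gene was at 0.62 (SE 0.33) in small intestine of the same animals and was too dim to be tested in salivary gland.

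**Figure D3:**
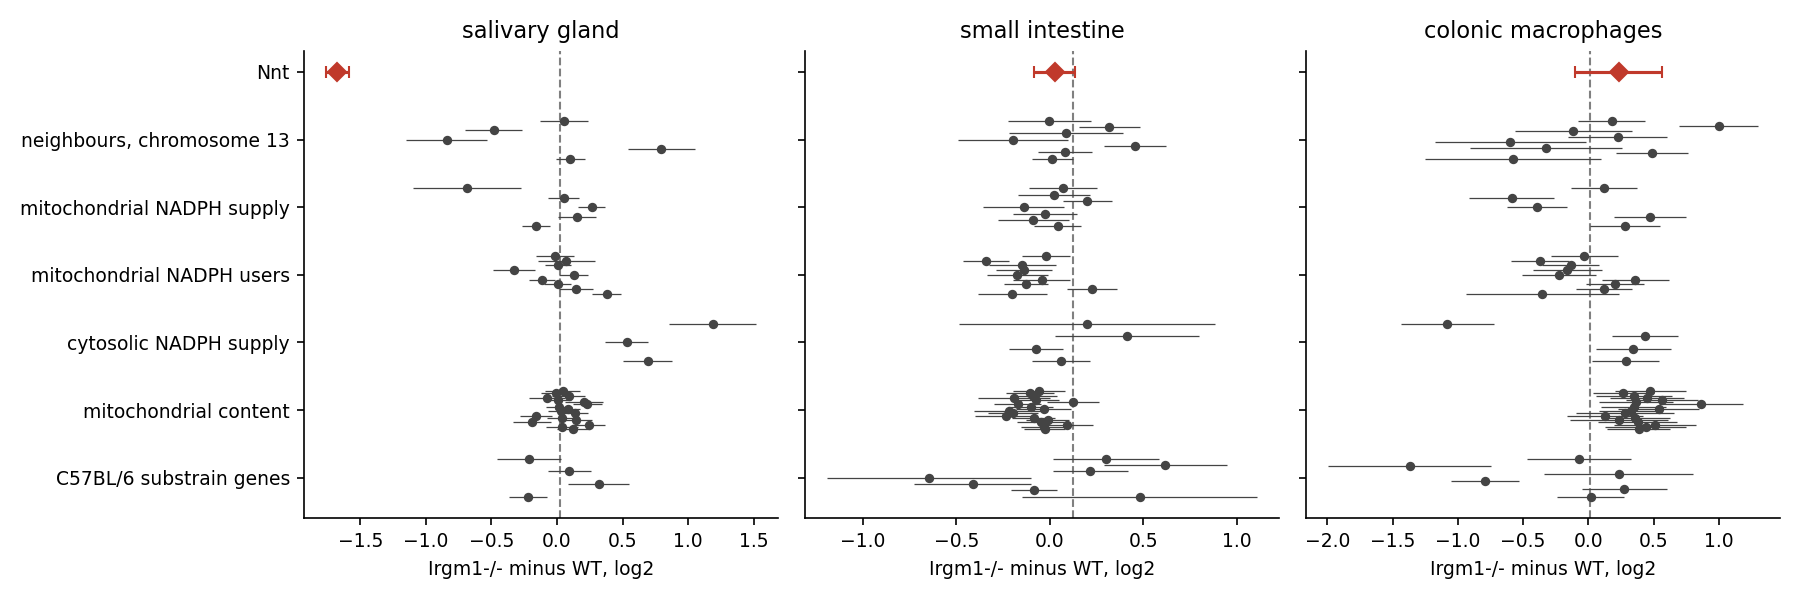
Difference in log2 level, Irgm1-/- minus WT, with its standard error, for Nnt (red diamond) and for each tested gene of 6 lists (grey points) in the 3 tissues. The dashed line is the median of all genes tested in the tissue. In salivary gland Nnt at -1.67 lies below every listed gene, the lowest of which is Tmem267 at -0.84.

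Among the cell type markers tested in salivary gland, limma called only 3, all of them macrophage markers. The macrophage markers C1qa, C1qb and C1qc, which encode complement component C1q, rose by 1.65 (SE 0.28, limma adjusted p = 0.0182), 1.31 (SE 0.26, limma adjusted p = 0.0451) and 1.54 (SE 0.25, limma adjusted p = 0.0158), and were 3 of 9 tested markers, where 2.14% of all genes were called higher. The call of C1qb held in 7 of 21 alternatives (limma adjusted p up to 0.219), and those of C1qa and C1qc in 15 of 21 each (up to 0.106 and 0.162). The other 6 did not pass: Cx3cr1 differed by 0.80 (SE 0.23), Lyz2 by 0.76 (SE 0.32), Cd68 by 0.48 (SE 0.80), Csf1r by 0.34 (SE 0.13), Adgre1 by 0.23 (SE 0.21) and Itgam by -0.11 (SE 0.32). The summed level of all 10 macrophage markers was 3.65 to 4.49 on Irgm1-/- arrays and 3.25 to 4.16 on WT arrays. Acinar markers had a median difference of -0.55 with 8 of 9 below 0 and 0 calls by limma. Amy1 was below 0 in only 13 of its 20 alternatives and varied widely within groups (SD 4.77 in Irgm1-/- and 6.46 in WT). The summed acinar levels were 6.10 to 8.68 in Irgm1-/- and 7.37 to 8.82 in WT, which overlapped. Duct markers had a median of 0.39 with 0 calls among 8, and without WT replicate 3 Foxi1 was called (0.87, limma adjusted p = 0.0314). Beside these acinar and duct counts, 2.32% of all genes were called in either direction. Of 8 small intestine epithelial markers, 7 were not well above background on any Irgm1-/- salivary gland array and 8 on any WT one. The part of these markers in the Nnt difference was not tested.

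Over the 20 arrays, after removing each tissue's mean, 8287 genes were ranked by their Pearson correlation with Nnt. The points share the arrays, and the salivary gland difference carries most of the spread, so r is a description with no test. Pttg1, securin, which holds back the separation of sister chromatids, was the most alike with r = 0.81. Next were Eif2ak3, the PERK kinase of the unfolded protein response (r = 0.75), Rapgef3, a cAMP-activated exchange factor (r = 0.75), Phyh, a peroxisomal enzyme of phytanic acid breakdown (r = 0.74) and Mia2 (r = 0.74). Pttg1 had levels of -4.33 to -2.60 on Irgm1-/- and -1.98 to -1.56 on WT salivary gland arrays, a difference of -1.75 beside the -1.67 of Nnt. Its 4 Irgm1-/- arrays were far more scattered (SD 0.72) than those of Nnt (SD 0.10). Phyh differed by -0.81 in salivary gland, -0.05 in small intestine and 0.61 in macrophages, and Eif2ak3 by -0.56, 0.13 and 0.54 in the same tissues.

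The genes least like Nnt were class I histocompatibility genes, which present peptides to T cells. H2-K1 had r = -0.91, and H2-T23, H2-K2 and H2-D1 each had r = -0.89, while Plac8 had r = -0.88. These class I genes resemble each other in sequence, so their probes may share signal. H2-K1 had levels of 2.59 to 3.44 on Irgm1-/- and 0.51 to 0.89 on WT salivary gland arrays, a difference of 2.27, with 0.24 in small intestine and 0.11 in macrophages. Centred on the 6 group means, which takes the genotype difference out, the order was another. Actr2, a subunit of the actin-nucleating Arp2/3 complex, and Pgrmc1, a haem-binding membrane protein, then had r = 0.94 and Api5, an inhibitor of apoptosis, r = 0.93. Scrn2 (r = -0.89), Borcs6 (r = -0.85) and Smurf1 (r = -0.83) were the least alike. In that ranking the spread of the macrophage arrays weighs most, since Nnt varied most there (pooled SD 0.41, against 0.12 in salivary gland and 0.14 in small intestine).

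**Figure D4:**
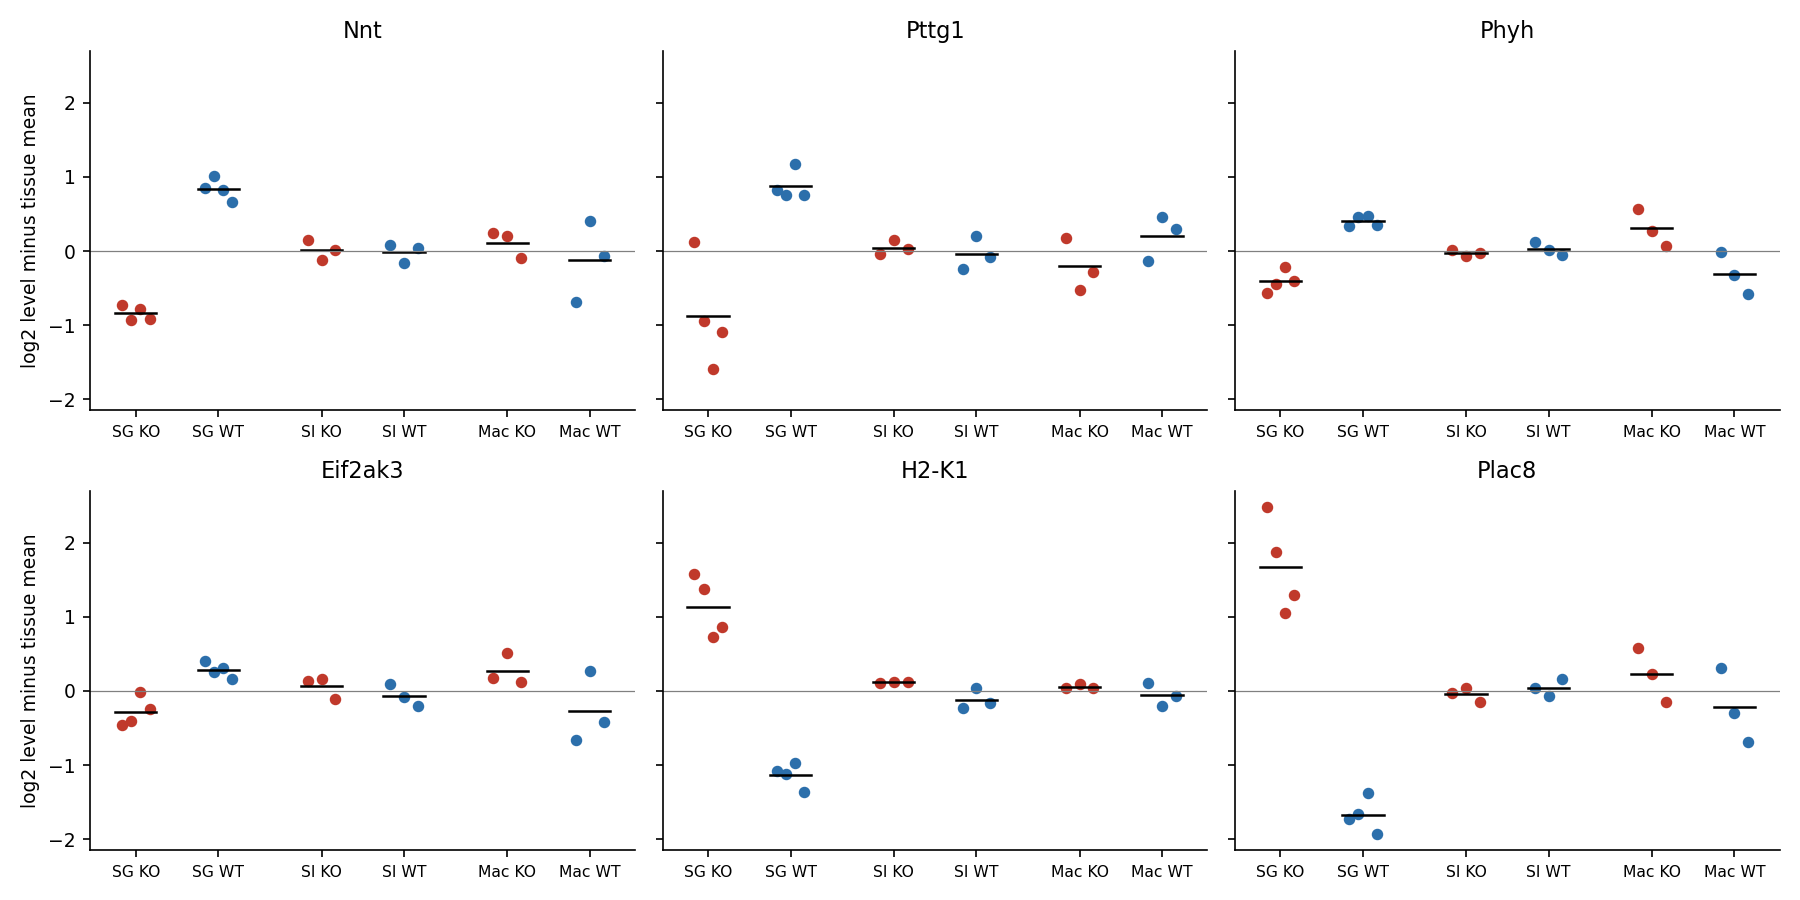
Log2 level minus the mean of its tissue on each of 20 arrays for Nnt, 3 genes with a like profile (Pttg1, Phyh, Eif2ak3) and 2 with an opposite one (H2-K1, Plac8); SG is salivary gland, SI small intestine, Mac macrophages, KO (red) Irgm1-/- and WT blue, with group means as lines. The salivary gland groups stand apart in Nnt and, the other way round, in H2-K1 and Plac8.

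The salivary gland difference of Nnt depended on the background correction and on which probes stood for the gene. It was -1.35 with normexp background correction and -1.12 with the mean of the 3 probes, 2 of which were at background in the tissue. In the authors' deposited table, taken to log2, it was -1.74. Leaving out any 1 array gave -1.73 to -1.62. Relative to the median of all genes it lay between -1.73 and -1.25 over 6 other ways to scale or correct the arrays. Relative to that median the small intestine difference lay between -0.10 and -0.07 and the macrophage difference between 0.19 and 0.22.

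**Figure D5:**
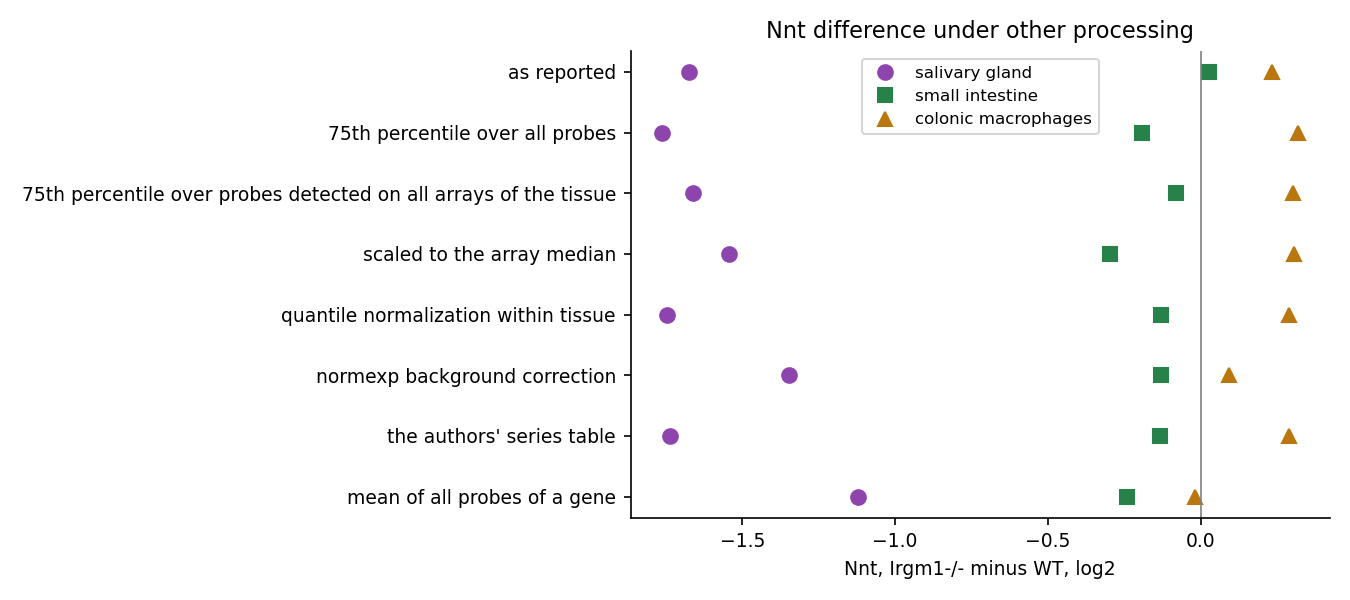
Nnt difference, Irgm1-/- minus WT on the log2 scale, as reported and under 7 other ways to scale, correct or summarise the arrays, for salivary gland (circles), small intestine (squares) and colonic macrophages (triangles). Salivary gland ranges from -1.76 to -1.12, and the small intestine values change sign with the scaling. The macrophage values are above 0 except with the mean of all probes (-0.02).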

How the data were processed

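RNA from 20 samples was hybridized to Agilent arrays of design 026655 (build mm9) and read with Feature Extraction 11.5.1.1, per the file headers. The deposited scanner files hold processed signal intensity on a linear scale, not normalized between arrays, and flags of 0 or 1 per spot (another kind of deposited value). The authors' deposited series table holds intensity too. How it was normalized is not stated in the labels or headers. From the values, it is quantile-normalized within each tissue, its direction and scale follow the scanner values (lowest Spearman correlation 0.933) and its array medians are 47.6, 298.7 and 381.2.

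Here, spots marked as outliers were left out, log2 levels were set to the array's 75th percentile over the 8448 probes well above background on all 20 arrays, and each gene was read from its brightest probe. A gene was tested in a tissue if its probe was detected on 4 or more arrays in salivary gland or 3 or more elsewhere, with limma 3.58.1 (R 4.3.3, with the data.table package, version 1.17.8), Benjamini-Hochberg adjustment and a threshold of 0.05. Standard errors are those of limma, except for Nnt, whose error comes from its group SDs. The test was tried on simulated data. Names came from RefSeq GRCm38.p6: 27508 probes matched by accession, 3544 by symbol and 404 by synonym, and 7973 kept the file's name. The planned choice of neighbours by probe coordinates could not be applied, since none are in the files used, and the order of genes in the RefSeq table was used. Named genes are Nnt; of each list, members past the threshold or otherwise up to 3 of the largest differences, with a few more named after their values were seen (Ide, Cox4i1, Amy1, Cela2a, Prss2); the neighbours; and the 5 (or 3) genes most and least like Nnt. Some genes that this rule names are not reported here. Nnt and the lists were chosen with earlier results of these data known.

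Mice of the same number were paired by slide and age in small intestine and macrophages, and their deviations from group means correlated by 0.23, 0.28 and 0.33 and by 0.45, 0.24 and 0.63, so replicate numbers were taken as pairs in those tissues. Mice of the same number were not read as pairs in salivary gland (0.22, -0.11, -0.53 and 0.44). Within each tissue the samples are separate mice per the labels, while small intestine and macrophages share 6 animals. The number of arrays limits precision. The alternatives were other scalings, normexp, the authors' table, the mean of probes, the filter on dim probes, blocks, an intensity trend, 1 fit of 20 arrays and leaving out each replicate.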

Additional observations from a re-analysis of the deposited data

Results flagged for a closer look

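The Nnt probes, the neighbours of Nnt and the genes most and least like it were examined in 58 groups of 4 salivary gland arrays for an array far from the others, and 1 stood out. Parp8, a neighbour of Nnt, had log2 levels of -3.99, -5.43, -5.33 and -5.35 on Irgm1-/- replicates 1 to 4, so the gap below replicate 1 was 0.934 of the group's whole range. It was well above background only on that array of the group, and with 58 groups examined such a gap can arise by chance. The Nnt probes held no such array in either salivary gland group.

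Phyh, whose profile was like that of Nnt, moved in opposite directions in 2 tissues. It differed by -0.81 in salivary gland and by 0.61 in macrophages, Irgm1-/- minus WT, and macrophages minus salivary gland came to 1.42 on the log2 scale. Every Irgm1-/- array lay below every WT array in salivary gland, as was so for 3.51% of all genes tested there. In macrophages every Irgm1-/- array lay above every WT array. Limma without a block called 0 of 21072 genes higher in macrophages, so Phyh did not pass there. The difference between the tissues was not tested.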

How the results depend on the processing

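The Nnt difference kept its sign in salivary gland under all 17 alternatives run and moved past its spread in 3: scaled to the array median -1.54, with normexp -1.35 and with the mean of all probes -1.12, where 2 dim probes enter by construction. In small intestine 6 alternatives moved it: -0.19 with the percentile over all probes, -0.30 with the array median, -0.13 with quantile normalization, -0.13 with normexp, -0.13 with the authors' table and -0.24 with the mean of probes. Leaving out 1 array gave -1.73 to -1.62 in salivary gland, -0.05 to 0.10 in small intestine and -0.05 to 0.49 in macrophages. In macrophages 0 of 15 alternatives moved the difference past its spread of 0.41, which is larger than the difference of 0.23 itself. With the mean of probes the macrophage difference was -0.02.

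With the replicate number as a block, which pairs samples in small intestine and macrophages only, Nnt differed by -1.67, 0.03 and 0.23, as without it. Genes called under that block numbered 634 in salivary gland (266 without), 1 in small intestine (34 without) and 1085 in macrophages (20 without), and Tmem267 was then called in salivary gland (limma adjusted p = 0.0455). The salivary gland count was 150 with the array median, 147 with no filter, 119 with detection on every array and 584 with the slide as a block, and 145 to 343 without 1 array (151 without Irgm1-/- replicate 2, and 167, 145 and 153 without WT replicates 1, 2 and 4). The small intestine count was 7 with normexp and 20 with the authors' table, and 2 to 31 without 1 array (2, 13 and 2 without Irgm1-/- replicates 1, 2 and 3, 10 and 3 without WT replicates 2 and 3). The macrophage count was 87 with the array median, 38 with quantile normalization, 40 with normexp, 36 with the authors' table, 6 with detection on every array and 812 in the fit of 20 arrays, and 0 to 27 without 1 array (0 without WT replicate 2, 12 without Irgm1-/- replicate 2). G6pdx was called in salivary gland in the fit of 20 arrays only (limma adjusted p = 0.0407). The cause of these shifts was not tested. Dim signal limits salivary gland, where 11457 genes could be tested, against 17979 in small intestine and 21072 in macrophages.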
